A study of Mus musculus with 54 samples.

Results

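Endstage prostate tumours of castrated DKO_EP mice were compared with endstage tumours of DKO_EP mice that were left intact. The comparison takes every endstage library labelled DKO_EP, which is 10 of the 54 libraries of the series, from 8 of 48 animals. DKO_EP is one of the series' mouse lines with an Ezh2 deletion. What the letters stand for, the alleles of the parent DKO line and the promoter that drives the deletion are not given in the sources used here. The castrated group, labelled Cx, holds 5 animals with 1 library each, castrated at 12 weeks and collected at 34 to 37 weeks. The intact group holds 5 libraries of 3 animals. Replicates 1 and 2 are pieces of one animal of 42 weeks, with the title suffixes AP and LP-DP. Replicates 3 and 4 are pieces of another animal of 39 weeks, with the suffixes DP and AP, and replicate 5 is a DP piece of an animal of 52 weeks. Titles of the castrated libraries carry no such suffix, so the sampled region is known for one group only. Pieces were averaged per animal before any test.

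Androgens drive the growth and the secretory genes of the prostate epithelium. Castration removes the testicular androgens, and tumours that grow back without them may keep luminal features, lose them or take on a neuroendocrine program. Ezh2 encodes the histone methyltransferase of Polycomb repressive complex 2, which keeps developmental genes silent together with Polycomb repressive complex 1.

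Castrated and intact libraries differed throughout the series in one set of genes. A total of 396 genes had no overlap between all 32 intact and all 22 castrated libraries, 139 of them higher and 257 lower in the castrated ones. They were set aside by rule and are not counted as results. The castrated DKO_EP libraries held 5323238 to 6662620 reads and the intact ones 4027297 to 5129603. Lars2, the gene of the mitochondrial leucyl-tRNA synthetase, took 14.2% to 21.6% of the reads of each intact library and 0.00321% to 0.00482% of each castrated one. Without Lars2 the intact libraries held 3316487 to 4232937 reads. Mean age was 35.4 ± 1.14 weeks (SD, n = 5) in castrated and 44.3 ± 6.81 weeks (SD, n = 3) in intact animals. Age and the Lars2 share both separated the groups without overlap (exact two-sided permutation p = 0.0179 for each, the smallest this design allows). The identifier letters, those that open an animal's identifier, were DKOE in every castrated animal. In intact animals they were ET, except for DKOE in the animal of replicates 3 and 4. Castration, age and the Lars2 share cannot be told apart within DKO_EP, and the identifier letters fall mostly with them. For that reason the values below are given beside the same contrast in the DKO and DKO_EE lines, which share no animals with it. DKO had 4 castrated animals of 39 to 99 weeks and 3 intact ones of 35 to 46 weeks. DKO_EE had 5 castrated animals of 35 to 59 weeks and 8 intact ones of 28 to 42 weeks. Ages overlapped in both lines and reached higher in castrated animals, whereas in DKO_EP the castrated animals were the younger group. DKO_EE has a Lars2 difference of its own, with castrated animals lower by 8.59 on the log2 scale (adjusted p = 1.82e-09, limma). Its intact libraries varied, and 5 of the 12 had a Lars2 share above 10%. In DKO the Lars2 difference was -1.77 and did not pass (adjusted p = 0.409, limma). A shared direction in DKO_EE is therefore not free of the Lars2 difference.

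Values are log2 of the authors' normalized count plus 1, and a difference is castrated minus intact on that scale. Of the 16376 genes kept, 1260 passed an adjusted p of 0.05 (limma, Benjamini-Hochberg over all 16772 genes), which is 7.69%. With the set-aside genes, all of which passed, the number was 1656 (9.87%). Of the 1260, 681 were higher in castrated tumours (4.16%) and 579 were lower (3.54%). A difference of more than 2-fold was reached by 341 of the higher and 345 of the lower genes. The number depended on single intact animals, falling to 826 without the animal of replicates 3 and 4 and to 763 without the animal of replicate 5. The castrated libraries all lay above the intact ones for 1134 genes (6.92%) and all below for 953 (5.82%). The median difference over all genes was 0.

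Most of these genes differed in the same direction in the other lines. Of the 1260 genes, 1221 had the same sign in DKO and 1226 in DKO_EE. In DKO, 808 of them passed in the same direction, which is 64.1% of the DKO_EP genes and 41.5% of the 1945 genes called there (11.9% of genes). In DKO_EE the number was 957, or 76% of the DKO_EP genes and 40.4% of the 2370 called (14.5%). The libraries of the other groups were used in addition as a scale of general separation. It is the share of 459 pairs of a castrated and an intact library in which the castrated one was higher. The castrated side includes a TKO line of 15 to 19 weeks, with 4 animals given vehicle and 4 given the compound CPI1688. The intact side includes animals of 12 weeks. This scale therefore mixes line, treatment and stage. Among the called genes, 196 of the higher ones lay at 95% or more on this scale, and 192 of the lower ones had at least 95% of the pairs in the lower direction. Together these are 388, or 77.4%, of the 501 kept genes with that much separation in one direction. Another 199 higher and 138 lower genes lay between 25% and 75%, and these 337 are 2.72% of the 12370 genes in that range.

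**Figure D1:**
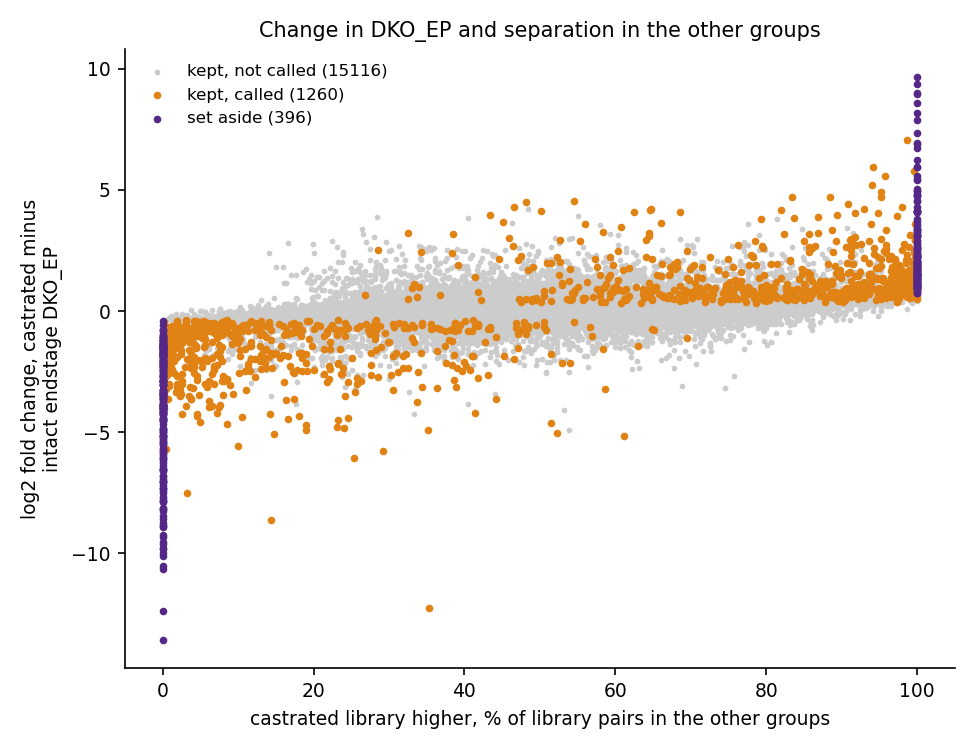
Each point is a gene, with the share of castrated and intact library pairs of the other groups in which the castrated library is higher (x axis, %) against its log2 fold change in DKO_EP (y axis, castrated minus intact endstage). The 396 set-aside genes stand at both ends of the x axis, and the 1260 called genes among those kept run along the direction of separation, with 337 of them between 25% and 75%.

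Androgen signalling was measured first, since castration targets it. Of 30 androgen response genes, 1 passed, upward (3.33%, against 4.16% of kept genes), and their median difference was 0.17. Elk4, an ETS-family transcription factor, was 9.99, 9.59, 10.03, 9.65 and 9.75 in castrated tumours. It was 8.61, 8.67, 8.82, 8.91 and 8.85 in intact tumours, with no overlap. Elk4 rose by 1.02 (SE 0.19, adjusted p = 9.19e-05, limma), and it also rose in DKO by 1.37 and in DKO_EE by 0.65.

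Other androgen-regulated genes overlapped between the groups. Fkbp5, a co-chaperone induced by steroid hormones, ranged from 8.95 to 10.13 in castrated and from 8.88 to 9.57 in intact libraries. Pbsn, the probasin gene of the normal mouse prostate, was at 0 in all 10 libraries, intact ones included. Tmprss2 averaged 7.29 ± 1.06 (SD, n = 5) and 6.65 ± 1.07 (SD, n = 3).

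The tumours of both groups carried some epithelial and neuroendocrine genes, such as Krt8, Insm1 and Chga, at high levels. Nkx2-1, another listed neuroendocrine gene, was at 0 in all castrated libraries and at 0.00 to 3.66 in intact ones. Krt8, a luminal keratin, ranged from 12.85 to 13.38 in castrated and from 12.69 to 13.65 in intact libraries. The prostate homeobox gene Hoxb13 was low, at 0.00 to 4.53 in castrated and 0.00 to 3.09 in intact libraries. Insm1, a neuroendocrine regulator, was 10.78, 10.76, 11.12, 11.55 and 11.43 in castrated libraries. In intact libraries it was 10.32, 10.18, 10.44, 10.75 and 10.27. All castrated values lay above all intact ones, but against the spread over all groups the difference of 0.76 (SE 1.32) did not pass (adjusted p = 0.879, limma). Chga, which encodes the granule protein chromogranin A, averaged 10.70 ± 0.39 (SD, n = 5) and 11.37 ± 0.19 (SD, n = 3), with overlap. Syp, Foxa2 and Chga each had an adjusted p above 0.8 (limma, 0.829 for Syp). None of the 40 neuroendocrine genes passed, and their median difference was 0.00, with 4 members not overlapping in the higher direction and 1 in the lower (10% and 2.5%, against 6.92% and 5.82% of kept genes).

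Neither luminal nor basal markers passed. None of 22 luminal genes did (median 0.29) and none of 20 basal genes (median 0.38). With only the 2 compared groups in the fit, some named markers passed, higher in castrated tumours. They were Esrp2, Ehf and Cdh1 (luminal) and Lamb3, Dsg3, Lama3 and Bcl11b (basal), with adjusted p = 0.00819 to 0.0344 (limma). That fit called 1050 of all kept genes higher. With Lars2 as a covariate these markers had adjusted p = 0.402 to 0.964 (limma). The largest basal difference was that of Dsg3, a desmosomal cadherin, at 4.22 (SE 1.77, adjusted p = 0.145, limma), with castrated libraries at 4.09 to 6.55 and intact ones at 0.00 to 4.35. Krt5 was at 0 in 3 castrated libraries and at 7.34 in castrated replicate 3. That library also had the highest Ttn share, 0.236% of reads against at most 0.0558% in any intact library; Ttn encodes the muscle protein titin. The part of muscle in these values was not tested.

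**Figure D2:**
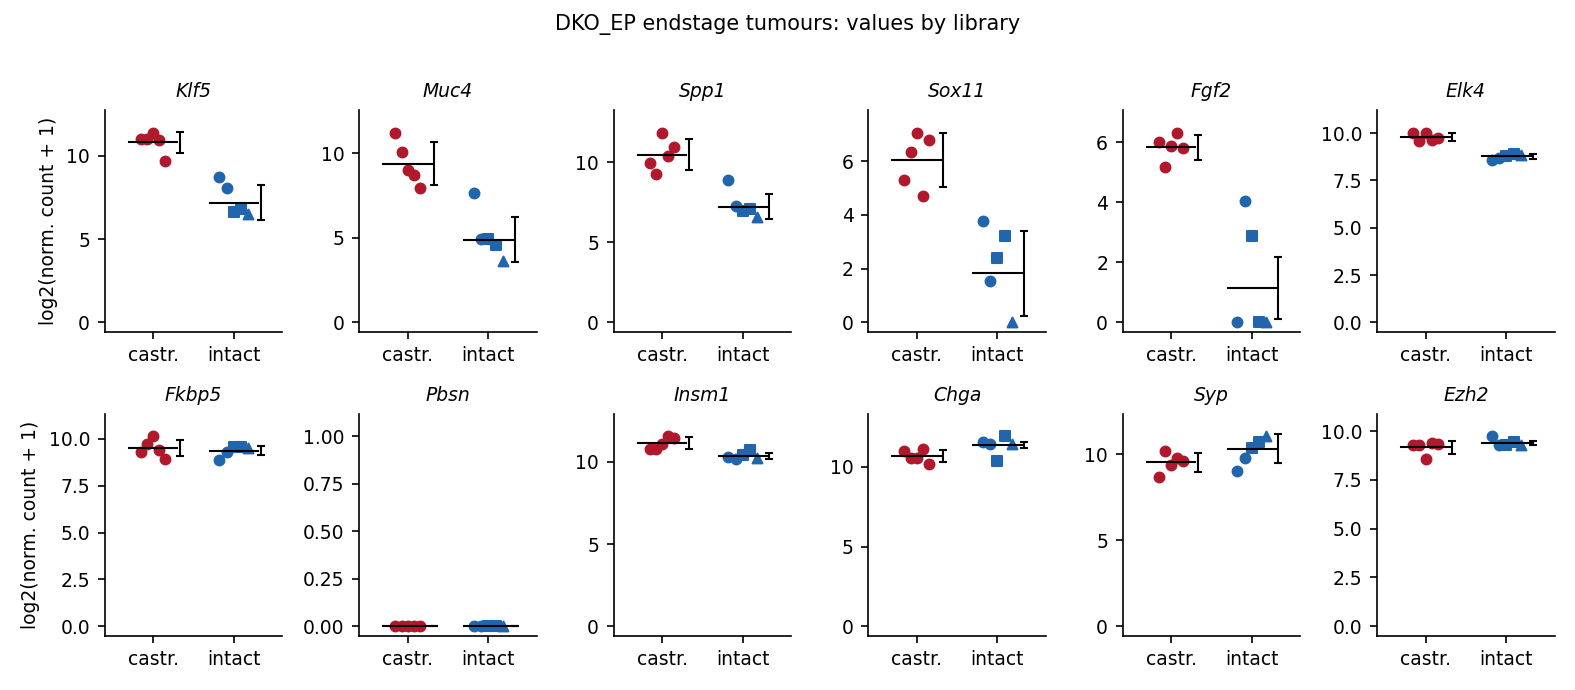
Values of 12 genes (y axis, log2 of normalized count plus 1) in castrated (red) and intact (blue) endstage DKO_EP libraries, where blue symbols of one shape are pieces of one animal. Lines and bars are the mean and SD over animals; Klf5, Muc4, Spp1, Sox11, Fgf2, Elk4 and Insm1 do not overlap between the groups, while Fkbp5, Chga and Syp overlap and Pbsn is at 0 throughout.

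Of 20 lineage plasticity factors, transcription factors of progenitor and plastic epithelial states, 2 rose (10%), against 4.16% of all kept genes, and none fell. Their median difference was 1.06. Leaving out 1 animal gave 1 or 2 calls. Klf5, a Krüppel-like factor of proliferating epithelium (chr14:99298691-99315036, plus strand, GRCm38), was 11.02, 10.99, 11.38, 10.92 and 9.69 in castrated tumours. It was 8.72, 8.04, 6.60, 6.79 and 6.48 in intact tumours. Every castrated library was above every intact one, although castrated replicate 5 was lower than the other four. Klf5 rose by 3.62 (SE 0.57, 12.3-fold, adjusted p = 5.37e-06, limma). It rose in DKO by 3.39 and in DKO_EE by 1.94, and the difference from DKO_EE, 1.68, did not pass (adjusted p = 1). With Lars2 as a covariate the adjusted p for DKO_EP was 0.0744.

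Sox11, a SoxC factor of neural and embryonic progenitors, was 5.31, 6.33, 7.06, 4.71 and 6.80 in castrated libraries. It was 3.77, 1.56, 2.39, 3.20 and 0.00 in intact ones. The groups did not overlap, and Sox11 rose by 4.22 (SE 1.38, adjusted p = 0.0424, limma). This call was lost without any one of the 3 intact animals, with adjusted p = 0.065 without replicates 1 and 2, 0.068 without replicates 3 and 4 and 0.294 without replicate 5. It was lost also without castrated replicate 2 (0.0708), 3 (0.0906) or 5 (0.0809). With Lars2 as a covariate the difference was 0.36 (adjusted p = 0.964), and limma-voom gave an adjusted p of 0.497. In DKO the difference was 2.18 and in DKO_EE -0.43, and neither passed.

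Epithelial-mesenchymal genes gave 1 call among 21, Spp1 (4.76%, against 4.16% of kept genes; median of the list 0.10). Spp1 encodes osteopontin, a secreted matrix phosphoprotein (chr5:104435118-104441050, plus strand, GRCm38). It was 9.95, 9.26, 11.83, 10.36 and 10.94 in castrated and 8.90, 7.27, 6.94, 7.07 and 6.57 in intact libraries. The ranges came close, 9.26 against 8.90, but did not overlap. Spp1 rose by 3.25 (SE 0.82, adjusted p = 0.00489, limma). In DKO and DKO_EE the differences were 0.61 and 0.47, and neither the contrast there nor the difference from DKO_EP passed (adjusted p = 0.911 against DKO and 1 against DKO_EE). Without intact replicate 5 the adjusted p was 0.0514. Vim, the mesenchymal filament gene, ranged from 8.10 to 11.18 in castrated and from 9.05 to 10.42 in intact libraries.

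Among the largest single increases were genes of secreted and surface proteins. Muc4, a membrane mucin (chr16:32735886-32782391, plus strand, GRCm38), was 11.22, 10.08, 8.99, 8.71 and 7.94 in castrated tumours. In intact tumours it was 7.64, 4.91, 4.95, 4.58 and 3.61. The lowest castrated value was above the highest intact one, which came from replicate 1 and stood well above its sister piece. Muc4 rose by 4.50 (SE 1.13, adjusted p = 0.0048, limma). In DKO the difference was 2.93, which did not pass (adjusted p = 0.0959), nor did its difference from DKO_EP (1.58, adjusted p = 0.971). In DKO_EE the difference was -0.09, and the test of the difference between the lines did not pass (4.59, adjusted p = 1). The adjusted p was 0.0659 without intact replicate 5, 0.271 with Lars2 as a covariate and 0.354 with limma-voom.

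Fgf2, a fibroblast growth factor, was 6.02, 5.19, 5.88, 6.33 and 5.82 in castrated libraries and 0.00, 4.05, 2.89, 0.00 and 0.00 in intact ones. Pieces of one intact animal differed here, and the castrated libraries were all higher. Fgf2 rose by 4.69 (SE 0.73, adjusted p = 5.24e-06, limma), by 3.86 in DKO and by 3.67 in DKO_EE. Gpr182, an endothelial atypical chemokine receptor, averaged 6.26 ± 0.55 (SD, n = 5) in castrated and 1.97 ± 1.77 (SD, n = 3) in intact animals. It rose by 4.29 (SE 1.07, adjusted p = 0.00461, limma), with -0.66 in DKO and 0.41 in DKO_EE. Without intact replicate 5 its adjusted p was 0.103. None of the 20 endothelial markers passed, and 12 of them had negative differences (median -0.13). Their sum was 13058 to 15399 in castrated and 8603 to 10849 in intact libraries. The part of endothelial cells in the Gpr182 values was not tested.

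The other genes of the 12 largest increases were Mia2 (7.08), Hbb-bs (5.78), Gpr27 (4.93), Zfp618 (4.71), Cnpy1 (4.42), Prrt1 (4.30), Pygo1 (4.21) and Scand1 (4.11). Hbb-bs is an adult beta-globin gene, Gpr27 an orphan receptor, and Pygo1 a nuclear cofactor of Wnt signalling. Mia2 varied little in castrated libraries, from 8.53 to 8.74, and ranged from 0.00 to 2.39 in intact ones. The castrated library was higher in 98.7% of the pairs of other groups for Mia2 and in 99.6% for Hbb-bs, so these lie close to the set-aside genes. For Scand1 the share was 68.6%.

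Several genes were noticed only after their values were seen. Sall4, a stem cell zinc-finger factor, was 3.75, 6.84, 6.48, 7.89 and 7.01 in castrated libraries and 7.04, 4.05, 2.39, 0.00 and 0.00 in intact ones. It rose by 4.15 (SE 1.27, adjusted p = 0.0267, limma), although intact replicate 1 overlapped the castrated range. The Sall4 call was lost without intact replicates 3 and 4 (0.161), intact replicate 5 (0.288) or castrated replicate 2 (0.0514), 4 (0.0727) or 5 (0.0537). Hsd3b6, a steroid dehydrogenase gene, was at 0 in all 5 intact libraries and was 2.37, 1.15, 4.37, 5.52 and 0.00 in castrated ones (adjusted p = 0.00768, limma). The Hsd3b6 call was lost with only the 2 compared groups in the fit (0.169), with only the 6 endstage groups (0.0528) and with Lars2 as a covariate (0.268). Pmaip1, which encodes the pro-apoptotic protein NOXA, was 7.87 to 9.81 in castrated and 5.01 to 8.49 in intact libraries and rose by 2.42 (SE 0.74, adjusted p = 0.0263, limma). The Pmaip1 call was lost without intact replicates 3 and 4 (0.220), intact replicate 5 (0.140) or castrated replicate 1, 3 or 4 (0.0525 to 0.0717).

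**Figure D3:**
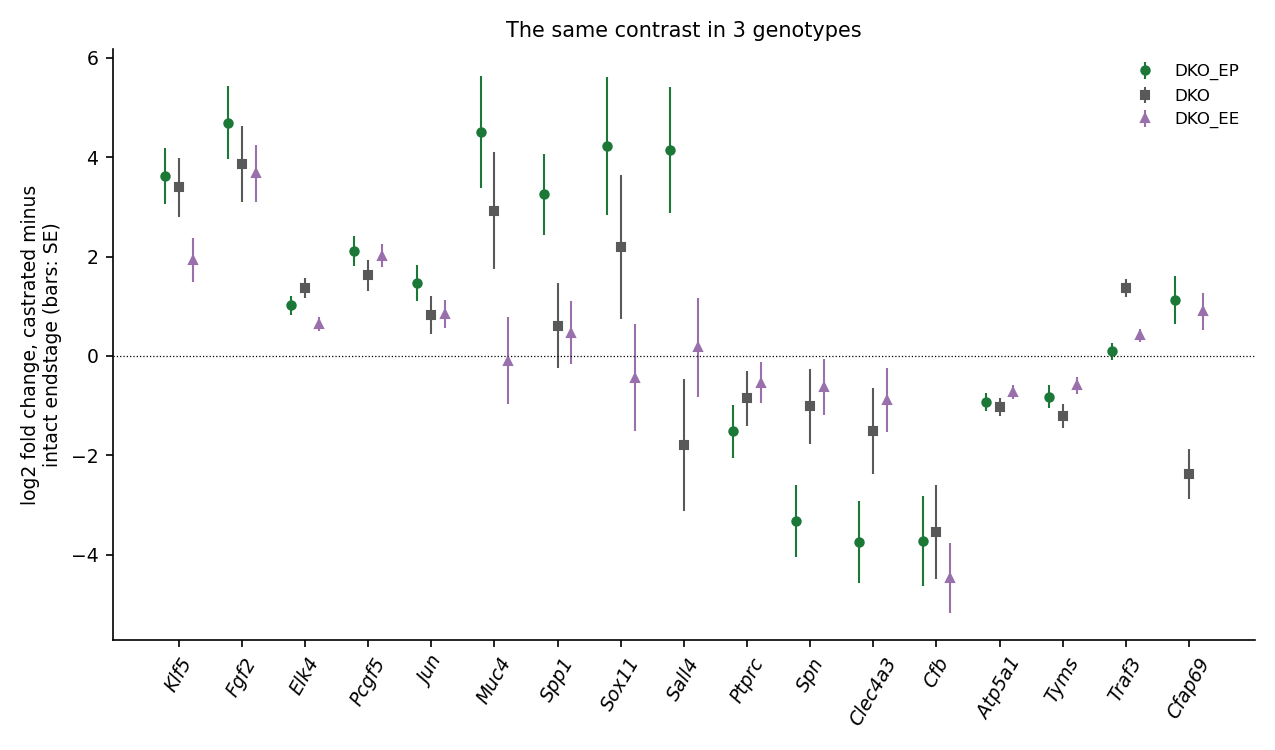
Log2 fold change of castrated minus intact endstage tumours with its SE (y axis) for 17 genes in DKO_EP, DKO and DKO_EE, each contrast with its own animals. Klf5, Fgf2, Elk4, Pcgf5 and Jun are positive in all 3 lines, while Muc4, Spp1, Sox11 and Sall4 are highest in DKO_EP with wide errors and no called difference between lines.

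The targeted gene and its complex were read next. Ezh2 was 9.28, 9.27, 8.58, 9.38 and 9.34 in castrated libraries and 9.72, 9.30, 9.26, 9.47 and 9.30 in intact ones. The values overlapped (difference -0.22, SE 0.31, adjusted p = 0.827, limma). They are gene totals, and which exons the deletion removes is not given in the sources used here, so they do not check the deletion. Ezh1, the paralogous methyltransferase, was 8.54 to 9.07 and 8.36 to 8.80. None of 11 genes of Polycomb repressive complex 2 passed. Aebp2, an accessory subunit, came nearest with 0.58 (SE 0.20, adjusted p = 0.0622, limma), and passed without castrated replicate 4 (0.0308).

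Polycomb repressive complex 1, the histone H2A ubiquitin ligase, had 5 of 19 genes higher (26.3%, against 4.16% of all kept genes) and none lower. Pcgf5, a subunit of a variant complex, was 10.31, 10.05, 10.40, 9.96 and 9.91 in castrated and 8.18, 7.83, 7.97, 8.15 and 7.98 in intact libraries. There was no overlap, and Pcgf5 rose by 2.11 (SE 0.30, 4.32-fold, adjusted p = 7.08e-07, limma). Its increase was 1.62 in DKO and 2.02 in DKO_EE, and it was higher in 98.5% of the pairs of other groups. Pcgf2 rose by 1.11, Pcgf3 by 0.82 and Cbx8, a chromodomain reader of the Polycomb histone mark, by 0.79. Without intact replicate 5 the count was 3, with Cbx8 at 0.224. The summed level of the 19 genes was 11103 to 12468 in castrated and 9307 to 9967 in intact libraries. In DKO, 7 of the genes passed in the higher direction and in DKO_EE 5. Of all kept genes, 11.9% and 14.5% passed there in either direction.

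Developmental genes under Polycomb control gave 1 higher call among 50, which is 2% against 4.16% of kept genes, with a median of 0.35. It was Foxc1, a forkhead factor, at 8.59 to 9.03 in castrated and 7.39 to 8.37 in intact libraries (0.87, SE 0.26, adjusted p = 0.02, limma). The call was lost without the animal of intact replicates 1 and 2 (0.167), without that of replicates 3 and 4 (0.102) and without castrated replicate 3 (0.0556). No gene of the Hox clusters passed among 35. Hoxd8 came nearest, with 7.86 to 8.84 in castrated and 3.78 to 8.64 in intact libraries (2.22, SE 0.78, adjusted p = 0.0622, limma). Intact replicates 3 and 4, pieces of one animal, held the lowest and the highest intact value of Hoxd8.

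Cell cycle genes differed little. Mki67, the proliferation antigen, was 13.60 to 14.05 in castrated and 13.49 to 14.16 in intact libraries. Of 30 proliferation genes 1 fell (3.33%, against 3.54% of kept genes), with a median difference of 0.02. This was Nek2, a mitotic kinase, at 7.39, 8.41, 8.52, 8.35 and 8.05 in castrated and 9.44, 9.69, 9.84, 9.93 and 9.90 in intact libraries. Nek2 fell by 1.64 (SE 0.44, adjusted p = 0.0101, limma), with -2.82 in DKO and -1.67 in DKO_EE. Without intact replicate 5 the adjusted p was 0.0556, and without replicates 3 and 4 it was 0.0519. The list as a whole differed between lines. In DKO 14 of the 30 genes fell (median -1.07) and in DKO_EE 1 (median -0.16). Of all kept genes, 11.9% and 14.5% passed there in either direction.

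Of 33 E2F target and replication genes, 2 fell (6.06%, against 3.54% of kept genes), Tyms by 0.82 and Rpa2 by 0.73. Tyms encodes thymidylate synthase and Rpa2 a subunit of the single-strand DNA binding protein RPA. The differences were small but even: 26 of the 33 were negative, and 10 lay wholly below the intact libraries (30.3%, against 5.82% of kept genes). The sum of the 33 genes was 28908 to 33216 in castrated and 34873 to 40698 in intact libraries. Pcna, the replication clamp, was 10.82, 10.81, 10.96, 10.88 and 10.87 in castrated and 11.36, 11.52, 11.63, 11.60 and 11.64 in intact libraries, without passing (adjusted p = 0.0769, limma). Neither call held without intact replicate 5 or without replicates 3 and 4, where Tyms was at 0.0749 and 0.054 and Rpa2 at 0.285 and 0.0759. Rpa2 was lost also without intact replicates 1 and 2 (0.056) or castrated replicate 1 (0.0848) or 3 (0.146). In DKO, 9 genes of the list fell and in DKO_EE 3, where 11.9% and 14.5% of kept genes passed in either direction.

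Genes of oxidative phosphorylation, the mitochondrial respiratory chain and ATP synthase, were next. Of 23 kept genes 6 fell (26.1%, against 3.54% of kept genes) and none rose, with a median of -0.39. Wholly below the intact libraries were 12 of them (52.2%, against 5.82% of kept genes). Atp5a1, the alpha subunit of ATP synthase, was 11.39, 11.49, 11.48, 11.69 and 11.37 in castrated and 12.18, 12.43, 12.40, 12.63 and 12.41 in intact libraries. It fell by 0.92 (SE 0.17, adjusted p = 0.000127, limma), by 1.02 in DKO and by 0.72 in DKO_EE. Cycs, which encodes cytochrome c, fell by 1.08, and the complex I genes Ndufa1 and Ndufv1 by 1.07 and 0.51. Cox7a2, of complex IV, fell by 0.71. Leaving out 1 animal gave 2 to 6 calls in this list, with 2 without intact replicate 5, and 3 without replicates 3 and 4 or without castrated replicate 3. The call of Cox7a2 was lost with any one animal left out (0.0549 to 0.172).

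All 24 kept cytosolic ribosomal protein genes had negative differences, with a median of -0.31. Of these 3 fell (12.5%, against 3.54% of kept genes): Rpl37 by 1.09, Rpl10 by 0.93 and Rpl5 by 0.85. Rpl10 was at 0.111 without intact replicate 5. Their sum was 37069 to 51576 in castrated and 49309 to 63506 in intact libraries, which overlapped through castrated replicate 1. In DKO 3 of the genes fell and in DKO_EE 11, where 11.9% and 14.5% of kept genes passed in either direction. The castrated library was higher in only 0.871% of the pairs of other groups for Rpl5 and in 5.23% for Rpl37.

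Of 24 kept immediate early genes 20 had positive differences, with a median of 0.58. Upward 1 passed (4.17%, against 4.16% of kept genes) and downward 1 (4.17%, against 3.54%). Jun, of the AP-1 transcription factor, was 10.43, 10.82, 11.11, 10.68 and 10.76 in castrated libraries. It was 9.60, 9.63, 9.59, 9.41 and 8.74 in intact ones, with no overlap. Jun rose by 1.47 (SE 0.36, adjusted p = 0.00378, limma), and its adjusted p was 0.0724 without intact replicate 5. Egr2, a zinc-finger factor induced by growth signals, fell by 3.07 (SE 0.83, adjusted p = 0.00974, limma), and without intact replicate 5 its adjusted p was 0.0514. Egr2 fell by 4.21 in DKO and by 4.18 in DKO_EE, and was higher in castrated libraries in 0.436% of the pairs of other groups.

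**Figure D4:**
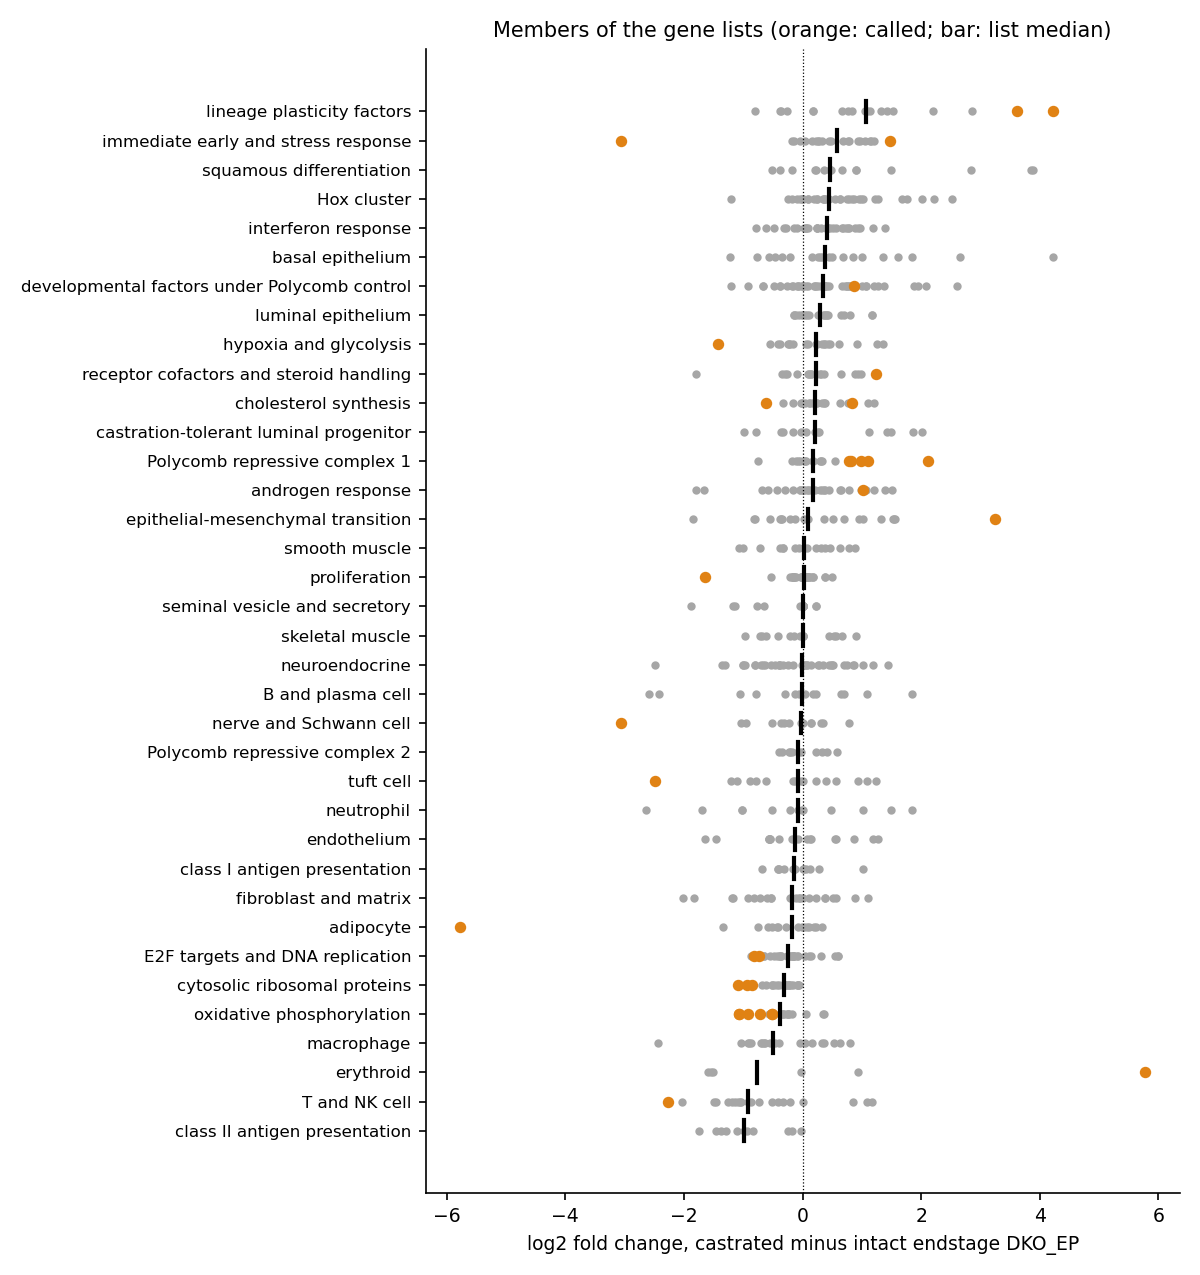
Log2 fold change (x axis, castrated minus intact endstage DKO_EP) of every kept member of 36 gene lists, with called members in orange and the list median as a bar. Medians run from -0.99 for class II antigen presentation to 1.06 for lineage plasticity factors, and 18 of the lists have no called member.

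Leukocyte genes mostly had negative differences, few of which passed. In bulk tissue, fewer cells of a type and less RNA per cell cannot be told apart. All 11 kept class II antigen presentation genes had negative differences (median -0.99), and 5 lay wholly below the intact libraries (45.5%, against 5.82% of kept genes), but none passed. With array weights, or with only the 2 compared groups in the fit, 5 of them fell. Those settings called 1499 and 784 of all kept genes lower. H2-Eb1, a class II beta chain, was 7.07, 6.53, 6.80, 7.12 and 6.60 in castrated and 8.28, 9.24, 8.79, 8.51 and 8.29 in intact libraries (-1.74, SE 0.62, adjusted p = 0.0681, limma; 0.00259 with array weights and 0.0003 with the 2 groups). In the fit of the 2 groups H2-Aa, H2-Ab1 and H2-DMb1 had adjusted p = 0.000861, 0.000889 and 0.0309. With Lars2 as a covariate H2-Eb1, H2-Aa, H2-Ab1 and H2-DMb1 had adjusted p = 0.978, 0.890, 0.896 and 0.981 (limma). The class II sum was 1589 to 2632 in castrated and 2870 to 4938 in intact libraries. Class II medians were 0.00 in DKO and -0.92 in DKO_EE.

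None of 20 macrophage genes passed (median -0.50), and their sums overlapped, at 1989 to 6729 and 3535 to 8012. The defining macrophage genes were well above 0, with Adgre1 at 5.78 to 7.55 in castrated and 7.47 to 8.36 in intact libraries. Of 21 T and NK cell genes, with a median of -0.92, 1 fell (4.76%, against 3.54% of kept genes). It was Pdcd1, which encodes the receptor PD-1, at 0 in all castrated libraries and at 4.47, 1.56, 0.00, 4.58 and 1.52 in intact ones (adjusted p = 0.0241, limma). That call was lost without the animal of intact replicates 1 and 2 (0.151) and without that of replicates 3 and 4 (0.0837). Cd3d was low in both groups, with 0 in 3 castrated libraries and in intact replicate 1. No interferon response gene passed among 34, where the median was 0.41.

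Clec4a3, a C-type lectin receptor of myeloid cells, was among the 12 largest decreases. It was 3.89, 1.78, 2.16, 3.18 and 2.56 in castrated and 6.65, 6.07, 5.76, 8.79 and 5.74 in intact libraries, with replicate 4 far above its sister piece, replicate 3. It fell by 3.74 (SE 0.83, adjusted p = 0.00108, limma), against differences of -1.51 in DKO and -0.88 in DKO_EE that did not pass. Further leukocyte genes were picked after their values were seen. Spn, the sialophorin CD43, was 2.37, 3.85, 3.78, 2.15 and 1.16 in castrated and 6.34, 5.31, 4.17, 7.87 and 6.10 in intact libraries and fell by 3.32 (SE 0.72, adjusted p = 0.000877, limma). Btk, a cytoplasmic kinase of myeloid and B cells, fell by 2.35. Fcgr4, an Fc receptor, fell by 2.63, Cd300e by 5.05 and Cd72 by 2.65.

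Ptprc, the pan-leukocyte antigen CD45, was 8.31, 7.40, 7.77, 7.55 and 7.85 in castrated and 9.33, 8.86, 8.62, 11.02 and 8.97 in intact libraries. It did not overlap, and its difference of -1.52 (SE 0.53) did not pass (adjusted p = 0.0656, limma). Ptprc passed in 4 alternative runs, while with Lars2 as a covariate its adjusted p was 0.975 (limma). Intact replicate 4 had the highest value of Ptprc, Spn, Btk, Fcgr4, Cd300e, Cd72 and Clec4a3. The other piece of that animal, replicate 3, had the lowest intact value of Ptprc, Spn, Fcgr4, Cd300e and Cd72. Fcgr4, for example, was 11.47 in one and 6.53 in the other. Without that animal Btk, Fcgr4 and Cd72 missed the threshold (adjusted p = 0.103, 0.0763 and 0.152, limma). Cd72 was lost without either other intact animal too (0.0594 and 0.122) and without castrated replicate 2 (0.0642), 3 (0.0713) or 5 (0.072).

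**Figure D5:**
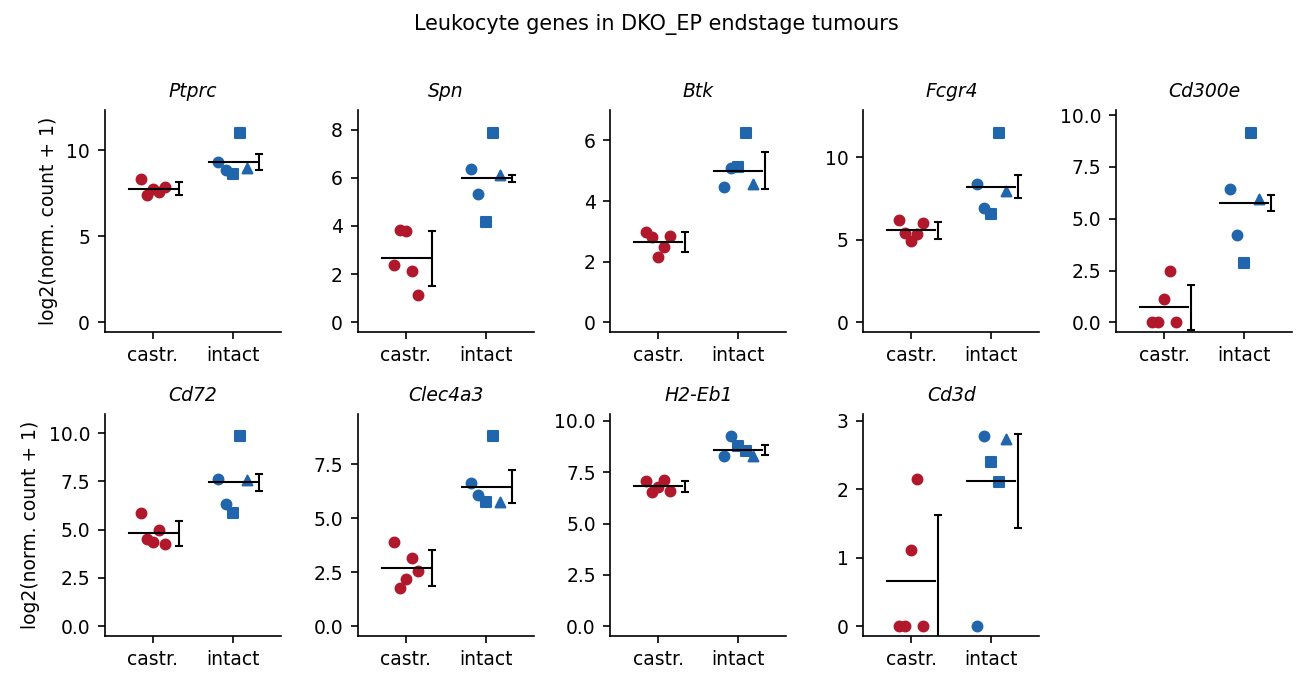
Values of 9 leukocyte genes (y axis, log2 of normalized count plus 1) in castrated (red) and intact (blue) libraries, blue symbols of one shape being pieces of one animal, with mean and SD over animals. One of the square symbols, intact replicate 4, is the highest point in 7 panels, up to 11.47 for Fcgr4, while its sister piece is the lowest intact point in 5 of them.

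The remaining large decreases were of mixed kinds. Lars2 was 7.89 to 8.46 in castrated and 20.20 to 20.87 in intact libraries, the largest difference of all kept genes that were named. Car3, the carbonic anhydrase of adipose tissue and muscle, was 1.25, 1.15, 0.00, 2.75 and 1.79 in castrated and 7.93, 6.85, 4.61, 9.86 and 6.87 in intact libraries. It fell by 5.78 (SE 1.71, adjusted p = 0.0206, limma) and was the only one of 16 adipocyte genes to pass (6.25%, against 3.54% of kept genes). The sums of the adipocyte list overlapped, at 496 to 1223 and 707 to 1899. Without any one intact animal Car3 missed the threshold (0.0663 to 0.076), as it did without castrated replicate 3 (0.0514). Cfb, complement factor B, fell by 3.72 (SE 0.90, adjusted p = 0.00322, limma), by 3.54 in DKO and by 4.47 in DKO_EE. With Lars2 as a covariate the Cfb difference was -0.77 (adjusted p = 0.859), and limma-voom gave an adjusted p of 0.0622.

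Nnat, the imprinted neuronatin gene, was 13.66 in intact replicate 3 and 6.61 in the other piece of the same animal. It was 14.02 in replicate 5, 4.60 and 5.38 in the remaining pieces, and 3.98 to 6.24 in castrated libraries. The values overlapped, and the decrease of 4.62 (adjusted p = 0.0438, limma) had an adjusted p of 0.569 without replicate 5 and of 0.154 without replicates 3 and 4. It was lost also without castrated replicate 2, 3, 4 or 5 (0.0579 to 0.0893). Col6a5, a collagen VI chain, was at 0 in 4 castrated libraries and in intact replicate 1 and fell by 4.51 (SE 1.35, adjusted p = 0.0221, limma). Without replicate 5 its adjusted p was 0.107, and without replicates 3 and 4 it was 0.138. Gbp10, Zbed5, Pwwp2b and the small nucleolar RNA gene Snord22 fell by 3.51, 3.64, 3.35 and 3.47.

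Some of the called genes belong to families of near-identical copies, in which counting can move reads between copies. Dynlt1b and Dynlt1c encode the same dynein light chain family and differ by 1 of 342 coding bases. The first 60 coding bases of both are shown because they hold that difference, at position 21 counted from the start codon, in capitals (GENCODE M21 transcripts, GRCm38; both on chr17, plus strand).
Dynlt1b: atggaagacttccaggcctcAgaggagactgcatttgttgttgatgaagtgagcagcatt
Dynlt1c: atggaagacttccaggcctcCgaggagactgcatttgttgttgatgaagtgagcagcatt
Dynlt1b was 6.13, 6.55, 5.21, 5.98 and 5.04 in castrated and 9.56, 10.06, 10.22, 10.43 and 9.23 in intact libraries. Dynlt1c, one of the set-aside genes, was at 0 in all 5 intact libraries and 4.65 to 5.36 in castrated ones. The summed normalized count of the family was 198 to 377 in castrated and 1237 to 2667 in intact libraries, so the copies did not balance each other. The same held for Srp54a, Srp54b and Srp54c, genes of the signal recognition particle, of which the first pair has identical coding sequence. Srp54b was at 0 in every castrated library and Srp54c in every intact one, and the family summed to 115 to 159 against 1478 to 1738. Eno1b fell by 8.62 while its parent Eno1, the glycolytic enolase, was 12.51 to 13.24 in castrated and 9.12 to 9.89 in intact libraries. Together the pair summed to 5848 to 9683 and 1490 to 3156. All these copies moved in the same direction in DKO and DKO_EE. Their values are uncertain as measures of a single gene.

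Many of the calls above depended on the fit. With the Lars2 level as a covariate, calls were also lost for Spp1, Gpr182, Zfp618, Cnpy1, Sall4, Pmaip1, Pcgf3, Cbx8, Foxc1, Nek2, Tyms, Rpa2, Ndufa1, Ndufv1, Cycs, Rpl10, Rpl37 and Egr2 (adjusted p = 0.0508 to 0.848). The Lars2 level separates the compared groups, so a call lost in this way does not show that a difference was absent. The differences of these genes became larger in size, except for Cnpy1, Sall4, Pcgf3, Cbx8, Ndufa1 and Egr2. For Spp1 the difference was 4.58 against 3.25, and for Cnpy1 2.61 against 4.42. The same covariate ended the calls of Pdcd1, Clec4a3, Spn, Btk, Fcgr4, Cd300e, Cd72, Car3, Nnat, Col6a5, Gbp10, Pwwp2b and Snord22 (0.226 to 0.967). Among these leukocyte genes the difference became -0.20 for Cd72, -0.23 for Btk, -0.84 for Clec4a3 and -0.87 for Spn. With identifier letters as a covariate Sox11, Cbx8, Foxc1, Tyms, Rpa2, Cycs, Cox7a2, Rpl5, Rpl10, Pdcd1, Nnat and Col6a5 missed the threshold (0.054 to 0.287). With limma-voom on recovered reads Spp1, Cnpy1, Hbb-bs, Sall4, Pmaip1, Car3, Nnat and Col6a5 did (0.0572 to 0.155). With the first library of each animal Sox11, Sall4, Pmaip1, Rpa2, Ndufv1, Cox7a2, Pdcd1, Cd72, Car3 and Col6a5 did (0.0656 to 0.143). An offset of 10 ended the calls of Sox11, Egr2, Pdcd1, Btk and Col6a5 (0.0517 to 0.208). In the fit of the 2 groups Cbx8, Rpa2, Sall4 and Nnat were lost (0.0635 to 0.0993). In the fit of the 6 endstage groups Sox11, Sall4, Rpa2, Cox7a2 and Cd72 were lost (0.057 to 0.0938).

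Whether castration went with another response in DKO_EP than in the other lines was tested by interaction. Against DKO, 4 genes of 16772 passed (0.0238%), with 879 at an unadjusted p under 0.05. Against DKO_EE, 1 passed (0.00596%), with 773 at an unadjusted p under 0.05. Traf3, a signalling adaptor of the TNF receptor family, rose by 1.37 in DKO and was 8.85 to 9.11 in castrated and 8.67 to 9.16 in intact DKO_EP libraries (difference between lines -1.27, adjusted p = 0.0417, limma). Cfap69, a cilium and flagellum gene, fell by 2.38 in DKO, whereas in DKO_EP the difference was 1.13 (between lines 3.51, adjusted p = 0.0417, limma). Hist1h4m, a histone gene, fell by 6.18 in DKO with -0.39 in DKO_EP. Lars2 was the fourth, and Gm4737 the gene that differed from DKO_EE. The 4 calls against DKO fell to 0 with age or with Lars2 as a covariate and without the animal of intact replicates 1 and 2. Leaving out any other one DKO_EP animal left 1 to 3.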

How the data were processed

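Total RNA of mouse prostate tumours was sequenced in bulk. The submitters' processing notes list STAR, RSEM, FastQC, DESeq2 and limma without versions, and the builds GRCm38 and mm10. The deposited table has 16772 genes, and the authors' values are log2 of a normalized count plus 1. Whole reads were recovered from the step between values (100% within 0.05 of a whole read). Of 56 columns, 2 matched no sample and were not used.

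Pieces of one animal were averaged, and limma 3.58.1 (R 4.3.3; lmFit, contrasts.fit, eBayes with a trend) was fitted to all 11 groups, 48 animals, with Benjamini-Hochberg adjustment over all genes and a threshold of 0.05. Sharing the spread over groups was chosen because 3 animals estimate it poorly. P-values measure the spread between animals. Genes were named by rule: up to 12 of the largest called changes per direction outside the lowest 25% by mean, up to 4 members of each of 25 lists, a set of lineage, androgen and Ezh2 genes, and called interactions. Some named genes are not reported here. Others are marked as chosen after their values were seen. Members and the 37 lists (818 genes, 59 of them not matched) were chosen with earlier results of these data known. Positions are from GENCODE M21. Alternatives covered filters, offset, normalization, weights, covariates, samples in the fit and each animal left out; limma-voom on recovered reads and stricter set-aside rules were chosen after seeing the data.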

Additional observations from a re-analysis of the deposited data

Results flagged for a closer look

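In 13 of the 169 named genes 1 castrated library stood apart from the others beyond Dixon's 95% critical value of 0.71 for 5 samples. Chance alone gives this in about 1 of 20 groups. Where the other castrated libraries are at 0, any detected value is flagged. Replicate 1 stood out with H2-Aa at 8.07, Rpl37 at 9.13, Tmprss2 at 9.11 and Tsc22d1 at 10.56, the last of them lower than the others. Replicate 2 had Tap2 at 8.88 and Ucp1 at 2.83, the latter at 0 in the others. Replicate 3 had Stard4 at 11.71 and the lowest Ezh2, 8.58, against 9.27 to 9.38 in the others. Replicate 4 had Gm4737 at 6.55 and low but detected values of Col6a5 (1.72), Cfd (3.18) and Pck1 (1.10), each at 0 in the others. Replicate 5 had the lowest Klf5, 9.69, against 10.92 to 11.38.

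The castrated minus intact difference was another one in DKO_EP than in DKO for 4 genes, by the interaction term of the fit: Lars2 (-10.49), Hist1h4m (5.79), Traf3 (-1.27) and Cfap69 (3.51). Against DKO_EE it was another one for Gm4737 (5.48, adjusted p = 0.00159, limma).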

How the results depend on the processing

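The 1260 calls rose to 3181 with array weights and fell to 337 when only genes with 25% to 75% separation in the other groups were kept. Leaving out 1 DKO_EP animal gave 763 to 1194. The interaction with DKO, 4 genes, gave 29 with array weights, 2 with an offset of 10 or with only the 6 endstage groups fitted, 1 with identifier letters as a covariate, and 0 with age, Lars2, the first library of each animal or limma-voom. Leaving out 1 DKO_EP animal gave 0 to 3. The interaction with DKO_EE, 1 gene, gave 2 with array weights and 0 with the 6 endstage groups. The cause of these shifts was not tested. Limma-voom called 1216 genes, 580 higher and 636 lower, against 681 and 579. Of 70 called named genes, 42 missed the threshold with Lars2 as a covariate, 18 with identifier letters and 15 with limma-voom. In the other direction, 38 uncalled named genes passed with array weights and 32 with only the 2 compared groups in the fit, which gave 1834 calls in all. No called named gene changed sign under any alternative run, while 50 values of uncalled ones did. Muc4 and Cnpy1 had adjusted p = 0.354 and 0.155 with limma-voom. No paired analysis was possible because the labels give the groups no shared replicate numbers. With 3 intact animals, at 3316487 to 4232937 reads outside Lars2, differences among genes of few reads are limited by depth.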
